A study of Mus musculus with 14 samples.

Results

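Among the 24016 transcripts measured in differentiating C2C12 myoblasts, 9 were the progenitor factor genes Pax3, Pax7, Six2, Six4, Six5, Eya1, Eya2, Eya3 and Eya4. They were chosen by name and not by a filter on their values, though with earlier results of these data known. C2C12 is a clonal mouse myoblast line that fuses into myotubes once serum is reduced, so the values describe 1 cell line in culture and not satellite cells in muscle. Cells were transfected with control siRNA (siCtrl) or with a pool of siRNAs against Klf5 (siKlf5), a Krüppel-like zinc-finger factor. Poly(A) RNA was sequenced on days 0, 1, 2 and 3, counted from the change of growth medium to medium with horse serum. Each siRNA and day had 1 library, 8 in all, with no replicate of any condition. Levels are given as the deposited FPKM values. They are per kilobase of exon and carry the authors' scaling to a matrix total of 10000000, a larger scale than the usual FPKM. Being per length, they can be compared between genes.

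Pax3 and Pax7 are paired-box transcription factors of muscle progenitors. Pax3 acts in the dermomyotome and in cells that migrate to the limb, and Pax7 marks satellite cells, the stem cells of adult muscle, and is usually lost as myoblasts differentiate. Six2, Six4 and Six5 belong to the sine oculis homeobox factors, homeodomain proteins that bind MEF3 sites in muscle genes such as Myog. The Eya proteins have no DNA-binding domain of their own but join sine oculis homeobox factors as coactivators and carry a phosphatase domain.

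Reads recovered from the values ranged from 7850497 (siCtrl, day 1) to 20301506 (siCtrl, day 2) per library. The targeted gene, Klf5, was lower in siKlf5 cells on each of the 4 days: it was at 224, 381, 614 and 933 in siCtrl cells on days 0 to 3 and at 35.1, 160, 192 and 211 in siKlf5 cells. In the limma fit described below its log2 difference was -1.92 ± 0.19 (SE, adjusted p = 0.0122), and this call was lost when any 1 library was left out (log2 -2.15 to -1.69, adjusted p between 0.191 and 0.686), and also without the filter on low values, the trend or the day term. Of the 5 myoblast markers, all were measured at a mean of at least 1, and their summed level was between 4584 and 8022. The 4 endothelial markers summed to at most 5.36 and the 5 leukocyte markers to at most 26.0. Of 8 fibroblast and adipocyte markers, Tcf21, Plin1 and Lep were at 0 in all 8 libraries, and Adipoq and Fabp4 had means of 0.477 and 0.301. Others of this list were present: Pparg at 33.6 to 156, Cebpa at 10.6 to 35.4 and Pdgfra at 5.0 to 21.1. The list summed to between 68.2 and 186.

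The 300-base windows around the RefSeq start sites, from 250 bases before to 50 bases after the start, were read for 6 of the 9 genes in GRCm38.p6, which is not the mm9 build of the expression table. Pax7, Six2, Six4, Six5, Eya3 and Eya4 had such windows, with 2 starts each for Six4 and Eya4. Windows for Pax3, Eya1 and Eya2 were not used here. 3 windows are shown. That of Six4 was the only one of the 8 with the MEF3 letters TCAGGTTTC. Those of Six5 and Eya4 are shown because these genes were called on day 3 against day 0 in the main fit given below. In Six4 the capitals mark the MEF3 letters, and in Six5 and Eya4 they mark matches to CCNCNCCC, the box bound by KLF and SP factors. Both strands were searched, so a match on the other strand reads as the reverse complement, and overlapping matches merge into 1 stretch of capitals.
Six4 (chr12:73113196-73113495, minus strand): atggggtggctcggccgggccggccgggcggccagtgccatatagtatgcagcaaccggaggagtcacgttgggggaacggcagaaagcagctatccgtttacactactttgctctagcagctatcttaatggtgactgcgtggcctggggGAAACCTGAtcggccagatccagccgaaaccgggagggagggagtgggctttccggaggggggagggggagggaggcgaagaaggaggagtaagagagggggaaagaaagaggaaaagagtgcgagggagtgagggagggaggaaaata
Six5 (chr7:19094294-19094593, plus strand): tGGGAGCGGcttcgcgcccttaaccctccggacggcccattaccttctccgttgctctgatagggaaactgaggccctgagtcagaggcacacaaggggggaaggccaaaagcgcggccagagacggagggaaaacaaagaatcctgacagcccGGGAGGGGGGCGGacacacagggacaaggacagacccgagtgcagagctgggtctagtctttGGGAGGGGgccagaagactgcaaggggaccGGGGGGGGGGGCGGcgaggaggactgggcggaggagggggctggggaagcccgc
Eya4 (chr10:23349894-23350193, minus strand): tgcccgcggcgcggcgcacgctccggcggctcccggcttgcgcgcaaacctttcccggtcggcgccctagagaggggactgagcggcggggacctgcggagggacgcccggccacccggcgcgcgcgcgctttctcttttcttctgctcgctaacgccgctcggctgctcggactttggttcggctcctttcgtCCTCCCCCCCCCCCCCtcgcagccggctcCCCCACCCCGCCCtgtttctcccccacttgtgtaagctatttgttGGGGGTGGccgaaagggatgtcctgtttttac
The MEF3 letters of Six4 begin 99 bases before the start site, and they occurred in 0.429% of all 32851 RefSeq windows of this length. The KLF/SP box occurred in 49.5% of all windows, and it was matched 9 times in Six5 (in 4 stretches), 10 times in Eya4 (3 stretches), 12 times in Pax7 (5 stretches), 5 times in Six2 and 2 times in Eya3. The first Six4 window held 4 matches and the second none. The 49.5% counts windows with at least 1 match, and no such background was made for numbers of matches. Several matches are shifts along 1 run of G or C, and the 8 windows were 57.3% to 69.3% G or C. The E-box CAGCTG, found in 16.3% of all windows, was in none of the 8. These matches describe letters only, and binding was not analysed here.

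The Pax genes were low. Pax7 lies on chromosome 4 (mm9, 139293996 to 139388883, minus strand). It was at 15.7, 15.0, 11.6 and 15.4 in siCtrl cells on days 0, 1, 2 and 3, and at 9.31, 18.8, 12.8 and 21.3 in siKlf5 cells. The ranges of the siRNAs overlapped, the lowest and the highest value both being in siKlf5 cells, and there was no steady fall over the course. Each value rested on 71 to 166 reads. The GENCODE annotation of mm9 holds a Pax7 transcript 1592 bases longer than the 4264 bases counted, and reads on the extra bases were not counted. Pax3 (chromosome 1, 78097842 to 78193711, minus strand) was at 3.82 in siKlf5 cells on day 0 (23 reads) and at 1.24 in siCtrl cells on day 2 (14 reads), and at 0 in the other 6 libraries. In those 6 libraries a count of 0 allowed a Pax3 level of up to 2.61 to 4.17, with 6 reads taken as 1 event.

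Among Six2, Six4 and Six5, Six4 was the most abundant. This gene (chromosome 12, 74201246 to 74214232, minus strand) encodes a homeodomain factor of muscle progenitors. It was at 78.1, 71.6, 91.1 and 87.4 in siCtrl cells on days 0 to 3, and at 63.1, 73.4, 68.4 and 100 in siKlf5 cells. The highest value was in siKlf5 cells on day 3 and the lowest in siKlf5 cells on day 0, so the siRNAs overlapped. Six5 (chromosome 7, 19679893 to 19683694, plus strand) encodes a related factor and lies beside the myotonic dystrophy kinase gene Dmpk. Six5 was at 10.4, 15.1, 11.7 and 26.4 in siCtrl cells and at 9.23, 21.1, 32.3 and 28.6 in siKlf5 cells. Both day 0 values were below all 6 later ones. Six2 (chromosome 17, 86083608 to 86087594, minus strand), known for its role in kidney progenitors, was at 0 in all 8 libraries, which on the same count of events allowed a level of up to 2.55 to 6.67.

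The Eya genes held both the most abundant of the 9 genes and a gene that was nearly absent. Eya3 (chromosome 4, 132194961 to 132280680, plus strand) was at 86.9, 79.3, 116 and 94.6 in siCtrl cells and at 104, 73.2, 97.2 and 83.0 in siKlf5 cells. Its lowest value in each siRNA was on day 1, and the siRNAs overlapped. Eya4 (chromosome 10, 22823974 to 23069709, minus strand) was at 45.5, 46.3, 94.3 and 96.7 in siCtrl cells and at 41.4, 54.2, 83.0 and 82.1 in siKlf5 cells. The 4 libraries of days 2 and 3 lay between 82.1 and 96.7, all above the 4 libraries of days 0 and 1, which lay between 41.4 and 54.2. Eya1 (chromosome 1, 14159039 to 14300280, minus strand) was at 40.9, 39.4, 44.5 and 36.6 in siCtrl cells and at 59.9, 49.9, 50.01 and 37.2 in siKlf5 cells. It was higher in siKlf5 cells on all 4 days, with a gap that shrank from day 0 to day 3. Neither the siRNA difference of Eya1 nor its difference in slope passed the tests given below. Eya2 (chromosome 2, 165455845 to 165597227, plus strand) was at 0.681 in siKlf5 cells on day 2, from 3 reads, and at 0 in the other 7 libraries.

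**Figure D1:**
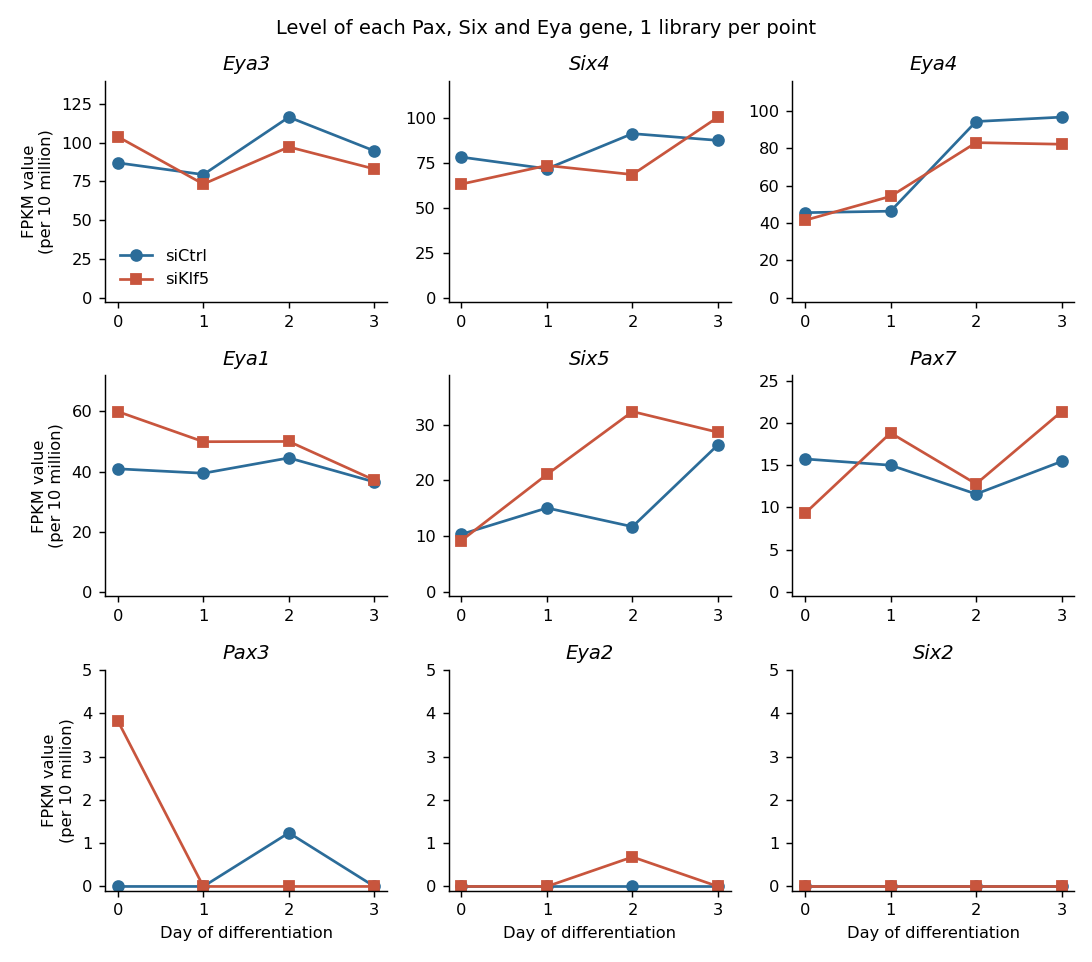
Each panel plots the deposited FPKM value of 1 gene against the day of differentiation (horizontal axis), 1 library per point. Circles are siCtrl and squares siKlf5 cells. The vertical axis is per kilobase and scaled to a matrix total of 10000000. It starts near 0, with a scale of its own in each panel. Eya4 lies between 41.4 and 54.2 on days 0 and 1 and between 82.1 and 96.7 on days 2 and 3 under both siRNAs, and Six2 is at 0 throughout.

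Over the 8 libraries the order of mean levels was Eya3 (91.8 ± 14.1, SD over 8 libraries of different conditions), Six4 (79.2 ± 12.7), Eya4 (67.9 ± 23.3), Eya1 (44.8 ± 8.04), Six5 (19.3 ± 9.0) and Pax7 (15.0 ± 3.86), followed by Pax3 (0.633), Eya2 (0.0851) and Six2 (0). Among neighbours in this order, Eya1 lay above Six5 and Pax7 above Pax3 in 8 of 8 libraries, by more than the larger of their SDs. No other pair of neighbours was that far apart: Eya3 lay above Six4 in 6 libraries, Six4 above Eya4 in 5, and Eya4 above Eya1 in 7. These levels are per exon length. 6 of the 9 genes had a mean of at least 1 and entered the tests, and Pax3, Six2 and Eya2 did not.

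To ask which of these genes changed as the cells differentiated, each later day was compared with day 0 over both siRNAs, with limma on log2(FPKM + 1), the day and the siRNA as terms, and Benjamini-Hochberg adjustment over all 14312 transcripts tested. The error is the departure from 1 common siRNA difference over the days, and the days are points of 1 course that are not stated to be separate cultures. In bulk RNA, fewer cells of a type and less RNA per cell cannot be told apart. On day 3, Eya4 and Six5 were called higher, and none of the 6 was called lower. Eya4 rose by 1.02 ± 0.20 on the log2 scale (2.03-fold, 95% interval 1.48 to 2.77, adjusted p = 0.00528). The rise was there on day 2 (log2 1.01, adjusted p = 0.00755), while day 1 gave 0.20 (adjusted p = 0.538). Six5 rose by 1.40 ± 0.44 on the log2 scale (2.64-fold, interval 1.31 to 5.34, adjusted p = 0.0425), with 0.80 on day 1 and 0.93 on day 2, neither past the threshold (adjusted p = 0.260 and 0.168).

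These 2 of 6 genes called on day 3 stand beside 31.1% of all transcripts called in either direction, 13% of all being called higher and 18% lower. On day 2, 1 of 6 was called higher, beside 23.8% of all transcripts called and 11.7% called higher, and on day 1 none of 6, beside 17.1%. The other 4 genes did not pass on day 3. Their log2 differences were 0.55 for Pax7 (interval -0.43 to 1.52, adjusted p = 0.371), 0.41 for Six4 (-0.05 to 0.87, adjusted p = 0.157), -0.42 for Eya1 (-0.96 to 0.12, adjusted p = 0.220) and -0.10 for Eya3 (-0.50 to 0.30, adjusted p = 0.712). The Eya3 value turned positive under both other scalings (0.0073 and 0.013). The median of the 6 genes was 0.48, beside -0.08 over all transcripts.

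The Eya4 call on day 3 was lost (adjusted p up to 0.0803) when the siCtrl day 0, siKlf5 day 0 or siCtrl day 3 library was left out, with log2 differences of 0.92 to 1.12 over all 8 omissions. The Six5 call was lost without the filter on low values (adjusted p = 0.193), without the trend (0.0744), and in 6 of 8 omissions, that is without either day 0, day 1 or day 3 library (log2 1.00 to 1.80, adjusted p up to 0.291). Within siCtrl cells alone, with no test, Eya4 differed by 1.07 between day 3 and day 0 and Six5 by 1.27, and within siKlf5 cells alone by 0.97 and 1.53. Pax7 differed by -0.03 in siCtrl and 1.12 in siKlf5 cells, and Six4 by 0.16 and 0.66.

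**Figure D2:**
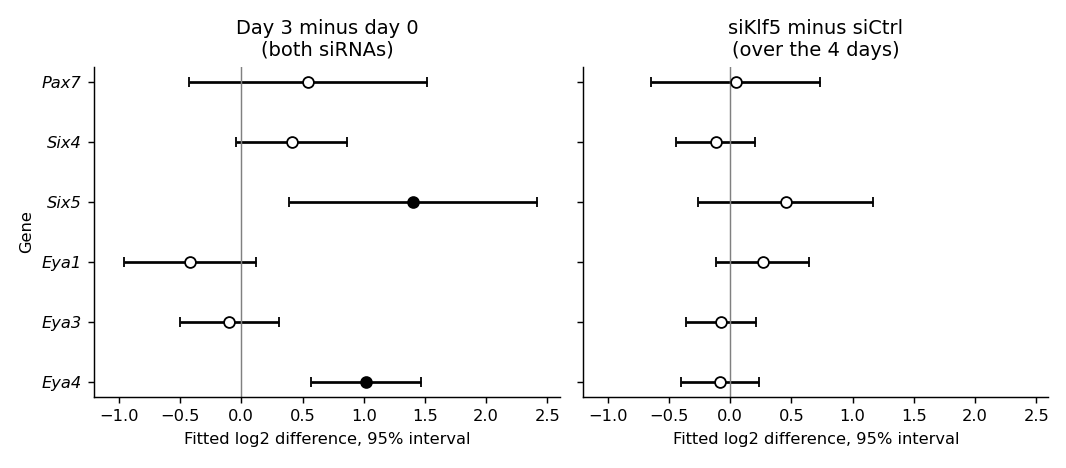
Fitted log2 differences of the 6 tested genes, with points for the limma estimate and bars for its 95% interval, for day 3 minus day 0 over both siRNAs (left) and siKlf5 minus siCtrl over the 4 days (right), with filled points for adjusted p under 0.05. Eya4 (1.02) and Six5 (1.40) are filled on the left, and every interval on the right includes 0.

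The rise of Six5 stood beside a change in the transcript next to it. Dmpk ends 724 bases before Six5 on the same strand and was at a mean of 1205, so that Six5 was at 1.02% to 2.31% of the Dmpk level. Dmpk was at 870, 1290, 1153 and 1451 in siCtrl cells and at 761, 1373, 1399 and 1341 in siKlf5 cells, and rose by 0.78 ± 0.13 on the log2 scale to day 3 (limma adjusted p = 0.00308). This call was lost without siKlf5 day 0 or siCtrl day 3 (adjusted p up to 0.0832), and without the filter on low values (0.0670). Over the 8 libraries, which share the days, Six5 and Dmpk correlated with r = 0.86 (a description). The part of Dmpk reads in the Six5 value was not tested. Eya3 ends 139 bases before Xkr8, which lies on the opposite strand and had a mean of 18.6. Over the 8 libraries Eya3 and Xkr8 correlated with r = 0.84 (a description). The part of Xkr8 reads in the Eya3 value was not tested. No transcript of the table overlapped any of the 9.

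The Eya family changed in its make-up over the course. The summed level of Eya1 to Eya4 was between 165 and 255. Eya4 made up 26.2%, 28.0%, 36.9% and 42.4% of the sum in siCtrl cells on days 0 to 3 and 20.2%, 30.6%, 36.0% and 40.6% in siKlf5 cells. Eya3 made up 50.1%, 48.1%, 45.6% and 41.5% in siCtrl cells and 50.6%, 41.3%, 42.1% and 41.0% in siKlf5 cells. Eya1 made up 23.6%, 23.9%, 17.5% and 16.0% in siCtrl cells and 29.2%, 28.1%, 21.7% and 18.4% in siKlf5 cells. The Eya4 share thus rose with each day in both siRNAs, and the ratio of Eya4 to Eya3 went from 0.523 on day 0 to 1.02 on day 3 in siCtrl cells and from 0.399 to 0.990 in siKlf5 cells. No test of these shares was made. Six4 was 7.54, 4.75, 7.78 and 3.31 times the level of Six5 in siCtrl cells and 6.84, 3.49, 2.11 and 3.50 times in siKlf5 cells. The ratio was lower on day 3 than on day 0 under both siRNAs.

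**Figure D3:**
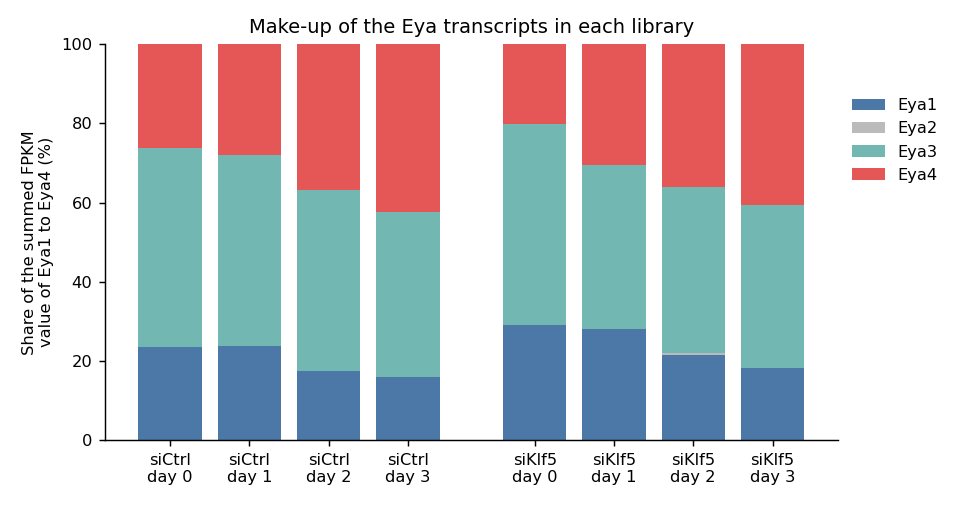
Stacked bars give the share (%) of each Eya gene in the summed FPKM value of Eya1 to Eya4 in each library, for siCtrl cells (left) and siKlf5 cells (right) by day. The Eya4 segment grows from 26.2% to 42.4% in siCtrl cells and from 20.2% to 40.6% in siKlf5 cells, and Eya2 is visible only in siKlf5 cells on day 2.

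To ask whether Klf5 knockdown changed these genes, the 4 within-day differences were fitted in limma as 1 siRNA term. None of the 6 genes passed, beside 0.0699% of all transcripts (10 of 14312, with 1417 at an unadjusted p under 0.05, to which none of the 6 belonged), so the design called few transcripts of any kind. The log2 differences, siKlf5 minus siCtrl, were 0.45 for Six5 (95% interval -0.26 to 1.17, adjusted p = 0.674), 0.26 for Eya1 (-0.12 to 0.65, 0.639), 0.05 for Pax7 (-0.64 to 0.74, 0.979), -0.08 for Eya3 (-0.36 to 0.21, 0.887), -0.08 for Eya4 (-0.40 to 0.24, 0.894) and -0.12 for Six4 (-0.44 to 0.20, 0.820). For Eya3, Eya4 and Six4 the intervals reached no farther from 0 than -0.44. That of Eya1 reached 0.65, and those of Six5 and Pax7 were wider. The fit takes 1 siRNA difference for all days, so these intervals do not bound the difference on a single day. The Six5 difference was 0.14 without either day 2 library and lay between 0.14 and 0.65 over the 8 omissions. The sign for Pax7 turned negative when either day 1 or day 3 library was left out. The difference in slope over days was called in 0 of 14312 transcripts (329 at an unadjusted p under 0.05), and the 6 genes had slopes that differed by between -0.17 (Eya1) and 0.32 (Pax7) log2 units per day, each with an adjusted p of 1.00.

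On single days, with 1 library per siRNA and thus no test, 2 of the 24 gene and day values were past 1.5-fold, with the +1 added. Six5 on day 2 was higher in siKlf5 cells by 1.39 on the log2 scale (counting interval 0.58 to 2.38, from 112 and 179 reads), and Pax7 on day 0 was lower (log2 -0.70, interval -1.91 to 0.32). Over all transcripts, 18.2%, 25.9%, 18.3% and 21.5% were past 1.5-fold in either direction on days 0, 1, 2 and 3. Short of 1.5-fold, the counting intervals of Six4 on day 2 (log2 -0.41, interval -0.73 to -0.10) and of Eya1 on day 0 (0.54, interval 0.04 to 1.07) also lay to 1 side of 0. These intervals are for the ratio without the +1, while the log2 values beside them have it added. The intervals cover counting error only and not the spread between cultures.

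**Figure D4:**
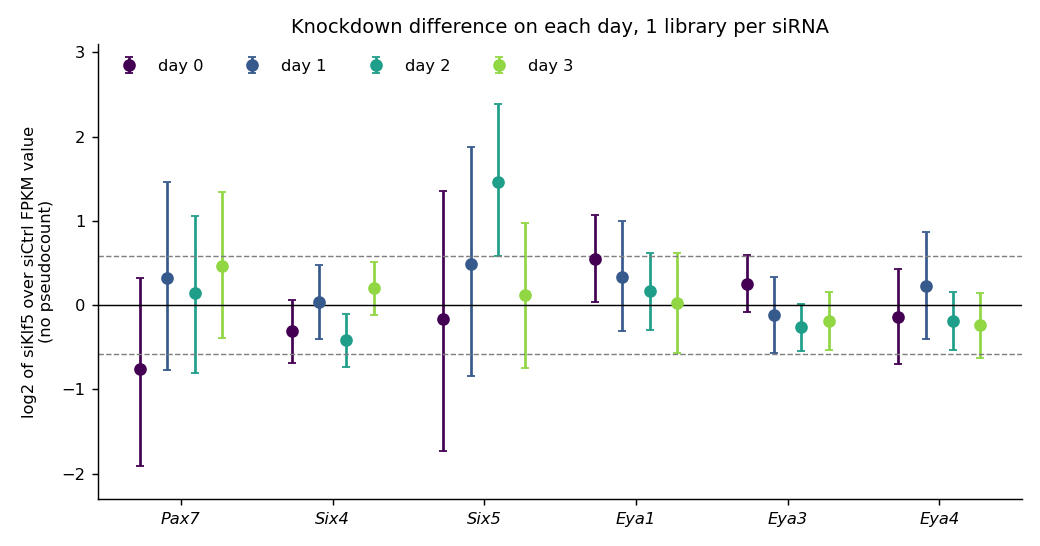
Points give the log2 ratio of the siKlf5 to the siCtrl FPKM value on each day, with no pseudocount, for the 6 tested genes, and bars give the 95% counting interval on reads divided by 6, with dashed lines at 1.5-fold. Six5 on day 2 lies above the upper dashed line, with an interval that leaves out 0. Pax7 on day 0 lies below the lower dashed line, with an interval that includes 0. The intervals of Six4 on day 2 and Eya1 on day 0 also leave out 0.

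Partners, targets and marker genes were read from lists, which were chosen from general knowledge. None of their genes was called in the siRNA comparison, which called 10 of 14312 transcripts of any kind, or in the difference of slopes. Unless stated otherwise, the results here are log2 differences of day 3 minus day 0 (± SE). In that comparison 31.1% of all transcripts were called, with a median of -0.08. Of 17 partners of these proteins, 15 were tested, 2 rose and 4 fell (median log2 -0.31), and the Dach genes Dach1 and Dach2, cofactors of Eya proteins, were too low. Sobp, the sine oculis binding protein homolog, rose by 1.45 ± 0.40 (limma adjusted p = 0.0248). Tle2, a Groucho corepressor, rose by 1.15 ± 0.24 (adjusted p = 0.00708). Hira, a histone H3 variant chaperone, changed by -0.81 ± 0.16 (adjusted p = 0.00594), and Paxip1, which links Pax proteins to histone methyltransferases, by -0.60 ± 0.17 (adjusted p = 0.0317), a call lost under both other scalings (0.0574 and 0.0590). The Sobp call was lost without any 1 library of days 0 or 3 (adjusted p up to 0.129), and that of Paxip1 without any 1 of days 0, 2 or 3 (up to 0.170). Without the filter on low values, the calls of Sobp (0.0679), Tle2 (0.133) and Hira (0.0518) were lost, and that of Tle2 also without the trend (0.0585). The Tle2 call was lost without siKlf5 day 0 or any 1 library of days 2 or 3 (up to 0.133), and that of Hira without either day 0 library or siKlf5 day 3 (up to 0.0840). Sobp was at 4.91, 8.63, 7.73 and 14.2 in siCtrl cells and at 10.3, 16.4, 19.2 and 32.0 in siKlf5 cells. It was higher in siKlf5 cells on each of the 4 days, by 1.03 ± 0.28 on the log2 scale, but did not pass the siRNA test (adjusted p = 0.290).

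Of 8 genes known as Pax targets, all were tested, 1 rose and 2 fell (median -0.20). Cxcr4, a chemokine receptor of migrating progenitors, rose by 1.81 ± 0.18 (limma adjusted p = 0.000218). Id3, an inhibitor of E proteins, changed by -1.35 ± 0.26 (adjusted p = 0.00531), and Met, the receptor for hepatocyte growth factor, by -1.07 ± 0.24 (adjusted p = 0.0105). The calls of Id3 and Met were lost without 1 of the siCtrl day 0 or the day 3 libraries, and that of Met also without siKlf5 day 0 (adjusted p up to 0.112 and 0.162). Both were also lost without the filter on low values (0.132 and 0.141) and without the trend (0.0560 and 0.0634), while that of Cxcr4 held in 8 of 8 omissions. Of 11 genes known as targets of sine oculis homeobox factors, 10 were tested, 4 rose and 2 fell (median 0.38). Ckm, muscle creatine kinase, rose by 5.68 ± 0.14, Myog, myogenin, by 2.17 ± 0.14 and Slc12a2, an ion cotransporter, by 2.00 ± 0.17, and Ccnd1, cyclin D1, changed by -2.42 ± 0.14 (adjusted p between 2.35e-07 and 9.28e-05). All 4 calls held in 8 of 8 omissions. Myog was at 479, 1896, 2061 and 2293 in siCtrl cells and at 328, 1517, 1740 and 1386 in siKlf5 cells. It was lower in siKlf5 cells on each of the 4 days (log2 -0.46 ± 0.10) but did not pass the siRNA test (limma adjusted p = 0.181). Ccnd1 was also lower on each day (-0.32 ± 0.10, adjusted p = 0.346). Ckm (0.05 ± 0.10) and Slc12a2 (-0.20 ± 0.12) did not pass. In the paper's quantitative PCR, Myog was significantly lower in knockdown cells on day 3. Other regulators also act on these genes, and the part of the 9 genes in their change was not tested.

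Of 16 satellite cell markers, 15 were tested, 7 rose and 1 fell (median 0.37). The largest changes among them were in Chrd (2.76 ± 0.26), a BMP antagonist, Spry1 (2.56 ± 0.21), an inhibitor of FGF signalling, Ncam1 (2.31 ± 0.15), an adhesion molecule, and Heyl (1.97 ± 0.15), a Notch target, with adjusted p between 1.91e-05 and 0.000144. Of 5 myoblast markers, 3 rose and none fell (median 0.63): Chrna1 by 1.18 ± 0.14, an acetylcholine receptor subunit, Itga7 by 0.75 ± 0.16, an integrin, and Des by 0.63 ± 0.16, desmin. The calls of Itga7 and Des were lost without siKlf5 day 0 or either day 3 library, and that of Des also without siCtrl day 0 (adjusted p up to 0.144 and 0.212). Both were also lost without the filter on low values (0.124 and 0.169) and without the trend (0.0552 and 0.0880). Itga7 and Cdh15 are in both of these lists, Cxcr4 and Myf5 are also Pax targets, and Myod1 is also among the targets of sine oculis homeobox factors. Of 3 fibroblast and adipocyte markers tested, Cebpa rose by 1.34 ± 0.43 (adjusted p = 0.0458) and Pparg changed by -1.91 ± 0.23 (adjusted p = 0.000528), and the Cebpa call was lost without any 1 library of days 0, 2 or 3 (adjusted p up to 0.338), without the filter (0.225), without the trend (0.0943) and with a pseudocount of 0.1 (0.0527). Neither the 1 endothelial nor any of the 3 leukocyte markers tested was called.

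The transcripts whose log2 course over the 8 libraries was most like that of each gene were sought in the 11590 with a mean of 10 or more, as a description, since the libraries share days and siRNAs. For Eya4 these were Fbxo9, Rapsn and Ttc33 (r = 0.99 for each), Rapsn being rapsyn, which clusters acetylcholine receptors. For Six5 they were B2m (0.98), Aamp (0.98) and App (0.96), for Six4 Gltscr1 (0.97), Rnf103 (0.97) and Acvr2a (0.92), and for Eya1 Tssc1 (0.95), Rnf169 (0.94) and Ankrd49 (0.93). For Eya3 they included Nelfcd (0.96) and Bbs5 (0.95). Pax7 had the lowest values, with 1700001G11Rik, Mycl and Jak2 at 0.88 each. Among the 6 genes themselves, r ranged from -0.78 (Eya3 with Pax7) to 0.68 (Eya4 with Six4).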

How the data were processed

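RNA-seq libraries of C2C12 cells (1 per siRNA and day) were used. The ChIP-seq samples were not analysed here. The authors selected poly(A) RNA, aligned paired-end reads to mm9 with STAR and counted exonic reads of RefSeq transcripts with HOMER, on both strands, keeping at most 3 reads per position and 1 transcript per gene. The versions are not given in the sources used here. The deposited FPKM values carry the authors' scaling to a matrix total of 10000000. The log2 columns that the authors deposited were not used, and 1 of them names no day. The exon length, also deposited, served to recover reads. Read counts that the study's text describes as normalized with DESeq2 were not used here. As both strands were counted, sense and antisense reads cannot be told apart.

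Within each library all of the 3263 to 3970 low values checked were whole multiples of 1 read to within 0.1. Transcripts with 6 reads outnumbered those with 5 by 2.83 to 10.0 times, so 95% Clopper-Pearson intervals took 6 reads as 1 event. They cover counting error only. The limit for a count of 0 was 3 such events, or 18 reads. Transcripts with a mean of at least 1 over the 8 libraries were tested with limma 3.58.1 in R 4.3.3 on log2(FPKM + 1), two-sided, with a mean-variance trend (3 residual degrees of freedom, or 4 for the difference in slope), and called at an adjusted p under 0.05. These fold changes understate those of low genes. The fit was tested on simulated data. Values were handled in Python 3.11.15.

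The genes and lists were chosen with earlier results of these data known, and p-values cover the spread between these libraries only. Named were all 9 genes, Klf5, up to 4 called genes with the largest differences per list, the 3 transcripts most alike to each gene with a mean of at least 10, and adjacent transcripts. 1 transcript that this rule names for Eya3 is not reported here. The lists were partners, Pax targets, targets of sine oculis homeobox factors, and satellite cell, myoblast, fibroblast and adipocyte, endothelial and leukocyte markers. Alternatives were other pseudocounts, filters, scalings, a fit without the trend or the day term, 1 siRNA alone, and omission of each library.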

Additional observations from a re-analysis of the deposited data

How the results depend on the processing

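The siRNA comparison called 10 transcripts, and 0 without the filter on low values, without the trend, without the day term, and in every omission of 1 library. Without the filter, day 1, day 2 and day 3 called 599, 1150 and 2143 transcripts in place of 2444, 3412 and 4444, and without the trend 856, 1639 and 2926. Omission of 1 library gave 390 to 1379 on day 1, 703 to 3293 on day 2 and 1698 to 4427 on day 3. Calls on day 3 were 1865 higher and 2579 lower as deposited, 2230 and 1904 with median-ratio scaling, and 2214 and 1956 with upper-quartile scaling. Upper-quartile scaling moved the median of all transcripts on day 1 from -0.08 to 0.04. Of the 24 single-day values, 2 passed 1.5-fold, 1 with a pseudocount of 5 and 1 at 2-fold. When the values of the 3 lowest genes were added to these 24, 5 passed. Those added were Pax3 on days 0 and 2 and Eya2 on day 2. They came from 23, 14 and 3 reads against 0 reads, with counting intervals that include a log2 ratio of 0. Eya4 on day 3 kept its call under the 7 tested alternatives that kept all libraries (adjusted p 0.00245 to 0.0382). On day 2 it lost the call without the filter (0.0522) and without any 1 library of days 0 or 2 (up to 0.111). On day 1 it was -0.00062 without the siKlf5 day 1 library, within a range of -0.00062 to 0.41 over the omissions. Eya3 on day 3 was 0.0073 with upper-quartile scaling, 0.013 with median-ratio scaling and 0.12 without the siKlf5 day 0 library, within a range of -0.32 to 0.12 over the omissions. Pax7 in the siRNA comparison was -0.04 without either day 1 library and -0.086 without either day 3 library, within a range of -0.086 to 0.29. The causes were not tested. The labels give no replicate numbers, and the day paired the siRNAs as the block of the siRNA comparison.

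Pax3, Six2 and Eya2 lay under the minimum mean of 1 and were not tested. Pax7 and Six5 rested on 47 to 179 reads per library.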
